A study of Mus musculus with 6 samples.

Results

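The guide sgMiat-96, which targets the long noncoding RNA Miat, was compared with the control guide sgGal4-4 in stem-like medulloblastoma cells. The 2 sgMiat-96 and 2 sgGal4-4 libraries make up 4 of the 6 RNA-seq libraries of the study, and the other 2 carry a further guide against the same RNA, sgMiat-6. All 6 libraries came from mouse cells labelled with the tissue cerebellum and the genotype Math1-Cre; SmoM2, the controls included. The sgGal4-4 cells are labelled WT, and the cells with either Miat guide are labelled Miat knockdown under a CRISPR design. Math1-Cre expresses Cre from the Math1 (Atoh1) promoter, which is active in granule neuron progenitors, and SmoM2 is an active form of the Hedgehog transducer Smoothened. The Cas protein, the age of the animals, the clones or infected pools behind each guide and the independence of the replicate cultures were not stated in the sources used here. The p-values therefore measure the spread between these libraries, which may be technical. The members were all 13220 tested genes of these libraries, with attention to genes and programs that sgMiat-96 moved and sgMiat-6 moved less or not at all.

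Miat, also known as Gomafu or Rncr2, is a spliced nuclear RNA of neural and retinal cells that has been linked to alternative splicing and to neural cell fate. In Hedgehog-driven medulloblastoma, active Smoothened releases the Gli transcription factors, which raise Gli1 and the receptor gene Ptch1 and sustain the proliferation of cerebellar progenitors. Guides against the same target can also differ in how strongly they act and in the sites they act on elsewhere in the genome, so the guides were compared with each other directly. The comparisons of each guide with sgGal4-4 share the same 2 control libraries. The direct comparison of sgMiat-96 with sgMiat-6 uses the controls only through steps shared by all libraries. Among these are the gene filter, the scaling factors and the common estimate of spread. This comparison is the test of whether the guides' effects differed.

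Miat (NR_003718, a lincRNA gene on the minus strand at chr5:112213228-112229395, mm10) had 140 and 139 counts in the sgGal4-4 libraries, which is 7.21 and 7.04 CPM (counts scaled to library size). A predicted gene, Gm26953, overlaps it on the opposite strand. Miat had 0 counts in both sgMiat-96 libraries and in both sgMiat-6 libraries. The level with sgMiat-96 was at least 83.4-fold lower than in the control, taking 3 counts over the group as the limit that 0 counts allow. The libraries thus matched their labels, and by this count the guides could not be ranked by how far Miat fell.

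The counts kept for analysis summed to between 18438891 and 19650274 per library. On the TMM scale used for CPM, 3 counts corresponded to 0.149 to 0.173 CPM. Of the granule neuron progenitor markers, 11 of 14 were tested, but Atoh1 was at 0 in all 6 libraries. Of the neural stem cell markers, Pax3 and Fut4 were at 0 in all 6 libraries, and Prom1 had at most 1 count. Hes5 was at 0 in both controls and had 13 to 41 counts with the Miat guides. Others of these markers, such as Nes, Vim, Fabp7, Sox2 and Olig2, were abundant. Their list, with 11 of 14 markers tested, summed to between 4929 and 5129 CPM with sgGal4-4, 7046 and 7624 CPM with sgMiat-6, and 7729 and 8293 CPM with sgMiat-96, which mostly followed Vim, Fabp7 and Olig2. By the test 6 of its members were higher and 4 lower with sgMiat-96 than in the control; the lower ones were Msi1, Msi2, Sox1 and Sox9, and Nes was not called. The summed astrocyte markers, 13 of 14 tested, were 4328 and 4493 CPM with sgGal4-4 and 1251 to 1371 CPM with either Miat guide. This fall of the sum was shared by the guides, but not every member followed it. S100b rose with either guide, and Aldoc fell with sgMiat-6 (-0.76 on the log2 scale) but was not called with sgMiat-96 (-0.04). Between the guides, Apoe (2.34) and Aldoc (0.72) were higher with sgMiat-96, and Slc1a2, Slc1a3 and Fgfr3 were lower. These were 15.4% and 23.1% of the list, beside 17.8% and 18.8% of all tested genes. The oligodendrocyte list, with 6 of 12 tested and Mag and Opalin at 0 throughout, rested mostly on Olig1 and Olig2. Of the microglial markers 6 of 14 were at 0 in every library, Cx3cr1 and Trem2 among them. In bulk RNA, fewer cells of a type and less RNA per cell cannot be told apart.

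Against sgGal4-4, sgMiat-96 changed 9011 of the 13220 tested genes (68.2%) at an edgeR adjusted p under 0.05, of which 4495 were higher (34.0%) and 4516 lower (34.2%). A change of at least 2-fold was called for 1979 higher genes (15.0%) and 2212 lower genes (16.7%). The same test for sgMiat-6 called 7007 genes (53.0%), with 3558 higher (26.9%) and 3449 lower (26.1%), and at least 2-fold changes for 1139 (8.62%) and 1443 (10.9%). The guides themselves differed at 4850 genes (36.7%), with 2359 higher (17.8%) and 2491 lower (18.8%) under sgMiat-96. At least 2-fold differences were called for 276 higher (2.09%) and 452 lower genes (3.42%). The balance of directions depended on scaling: with library totals in place of TMM factors the median over all genes moved by -0.20 on the log2 scale against the control and by -0.14 between the guides. The split then became 3535 higher and 5549 lower against the control, and 1380 higher and 3720 lower between the guides. All log2 values below are relative to the TMM scale, on which the median over all genes was 0.00 against the control and 0.01 between the guides.

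The differences that set sgMiat-96 apart followed transcript length. Genes with short transcripts were higher and genes with long transcripts lower with sgMiat-96, in steps across the whole range of lengths. In the tenth of genes with the shortest transcripts, up to 1061 bp, the median log2 difference from the control was 0.80, and in the tenth with the longest, from 6192 bp, it was -0.85. The corresponding medians were 0.32 and -0.36 for sgMiat-6 against the control, and 0.51 and -0.50 between the guides. Between the guides, 48.0% of the shortest genes were called higher with sgMiat-96 and 5.30% lower, while 0.984% of the longest were called higher and 58.8% lower. Each library had its own slope. The median of the shortest bin minus that of the longest was -0.0418 and 0.0434 in the control libraries, 0.379 and 0.820 in the sgMiat-6 libraries, and 1.64 and 1.28 in the sgMiat-96 libraries, replicates 1 and 2. No library overlapped another group in this value, and the replicates of each Miat guide also differed from each other in it. Which step of the experiment or of the biology set these slopes was not tested.

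A smooth curve of each library on transcript length was therefore removed in a further fit, reported below beside the main values of the lists and of most genes. After it, the bin medians between the guides lay between -0.022 and 0.061. Against the control this fit called 4373 genes higher (33.1%) and 4185 lower (31.7%) with sgMiat-96, and 29.4% higher and 27.0% lower with sgMiat-6. It called 1683 genes higher (12.7%) and 1499 lower (11.3%) with sgMiat-96 than with sgMiat-6.

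**Figure D1:**
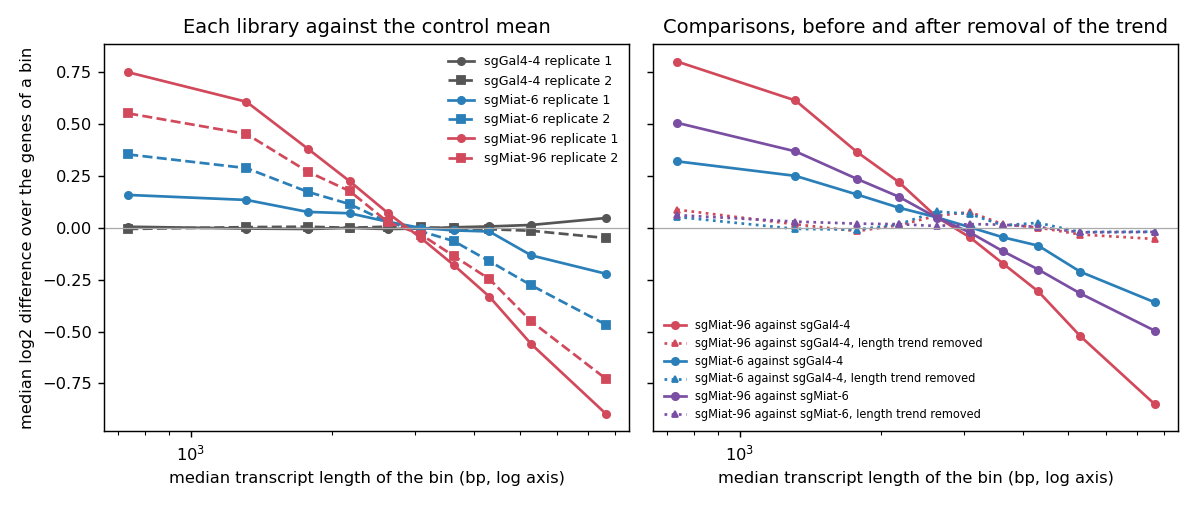
Median log2 difference over the genes of each of 10 bins of transcript length (x axis, median length of the bin in bp, log axis). Left, each of the 6 libraries against the mean of the sgGal4-4 libraries; right, the 3 comparisons before (solid) and after (dotted) the length trend was removed. Both sgMiat-96 lines run from above 0 at short lengths to below 0 at long lengths more steeply than the sgMiat-6 lines, and the dotted lines stay near 0.

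Counts of list members called are to be read beside the shares over all tested genes. These were 34.0% higher and 34.2% lower with sgMiat-96, and 26.9% and 26.1% with sgMiat-6. Between the guides they were 17.8% and 18.8%, or 12.7% and 11.3% with the length trend removed. Gene lists of cell functions separated into those whose excess with sgMiat-96 shrank to near 0 when length was considered and those whose excess remained. Mitochondrial ribosomal, respiratory chain and spliceosomal Sm and LSm protein genes belonged to the first kind, as did the falls of chromatin regulators. Glycolysis and sterol synthesis genes belonged to the second. Hypoxia target genes outside glycolysis had medians between the guides of 0.21 and, with length considered, 0.28. Their main-fit shares called, 25.9% higher and 14.8% lower, lay near those of all tested genes, and they are not placed in either kind. Lysosomal genes, interferon response genes and the cytosolic ribosomal proteins lay between. This grouping considers length alone. When a GC content trend was removed instead, 25 of the 44 list medians between the guides, cell markers included, moved beyond their spread between replicates. The other 19 did not. For lists, the GC fit is given below only for mitosis genes.

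**Figure D2:**
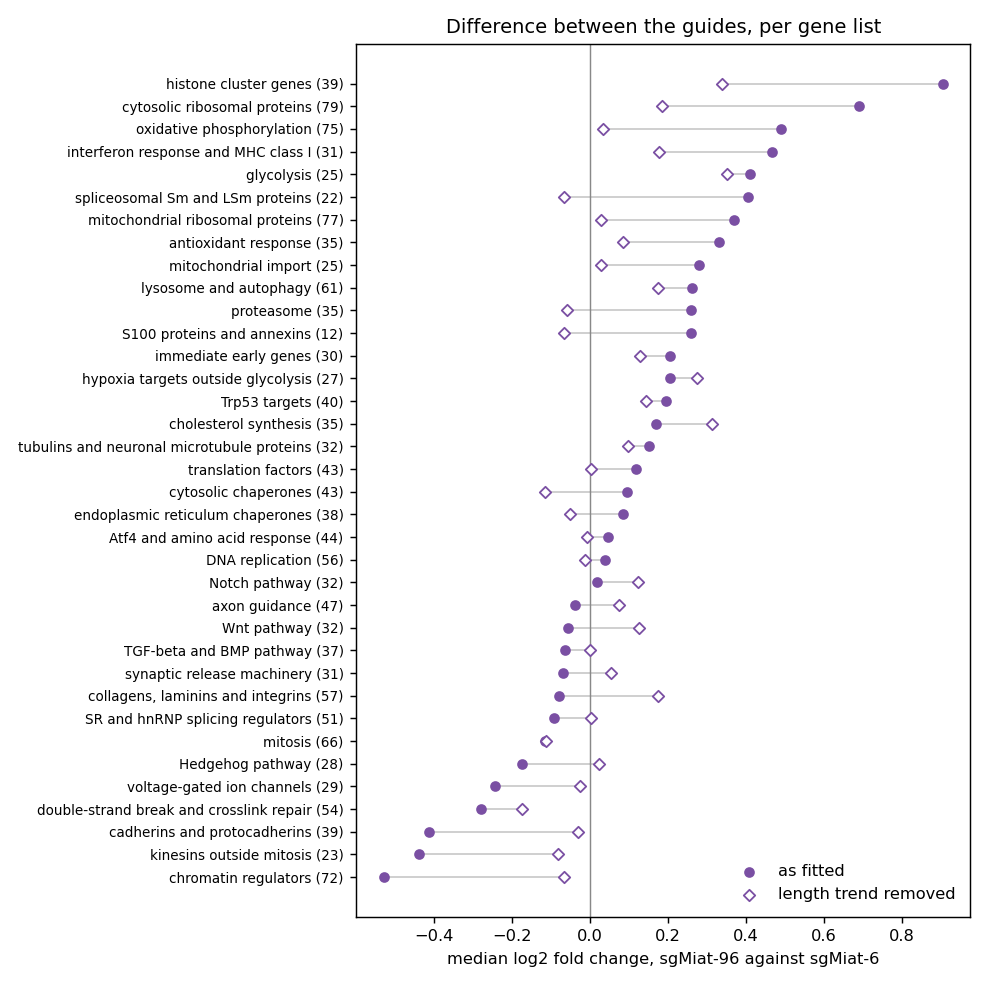
Median log2 fold change of sgMiat-96 against sgMiat-6 for 36 gene lists, with the number of tested members in parentheses; filled circles show the values as fitted and open diamonds those with the length trend removed. Oxidative phosphorylation moves from 0.49 to 0.03 and chromatin regulators from -0.53 to -0.07, while glycolysis stays at 0.41 and 0.35.

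Cytosolic ribosomal proteins build the subunits that translate messenger RNA, and their transcripts are among the shortest, with a median of 703 bp beside 2843.5 bp over all tested genes. Of 79 genes, 78 rose with sgMiat-96 and 0 fell, with a median log2 change of 1.16. With sgMiat-6, 63 rose and 1 fell, with a median of 0.47. Between the guides 75 were higher with sgMiat-96 and 0 lower, with a median of 0.69 beside 0.01 over all tested genes. With the length trend removed 37 were still higher and 1 lower, and the median was 0.19. The 4 genes not called between the guides were Rpl4, Rpl5, Rpl21 and Rpl36a. The count of 75 fell to 43 without sgMiat-96 replicate 1, the library with the steepest length slope, and was 61 to 79 with any other library left out. The 37 became 24 without the same library.

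Rpl22, of the large subunit, is among the longer ones of the list, with a transcript of 2357 bp. It had 189 and 169 CPM with sgGal4-4, 258 and 326 CPM with sgMiat-6 and 596 and 560.2 CPM with sgMiat-96. Every sgMiat-96 value was above every other value, and both sgMiat-6 values were above the controls. The guides differed by 0.99 ± 0.123 on the log2 scale (edgeR adjusted p = 0.000454) and 0.91 with the length trend removed. Rpl39, at 394 bp, had 175 and 149 CPM with sgGal4-4, 236 and 291 CPM with sgMiat-6 and 688 and 575 CPM with sgMiat-96. sgMiat-96 differed from sgMiat-6 by 1.26 ± 0.132 (edgeR adjusted p = 0.000198), and 0.68 once length was considered. Rplp2, a protein of the ribosomal stalk, and Rps28 of the small subunit had differences of 1.26 and 1.25, each 0.69 with the trend removed.

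Ribosomal protein messages typically begin with a C followed by a run of pyrimidines, the feature through which growth signalling sets their translation. RefSeq promoters (GRCm38.p6, 250 bases before to 50 after the start) were matched for 58 of the 79 genes and searched for C followed by 4 pyrimidines (C or T) beginning within 5 bases of the start. A gene counted if any of its promoters matched. The pyrimidine start was found in 28 of 58 genes (48.28%), against 2319 of 9824 tested genes with a promoter (23.61%). Counted per promoter and not per gene, it was found in 18.35% of all promoters of the table. For oxidative phosphorylation genes, which are as short, it was 16 of 63 (25.4%). Of the genes described above, Rplp2 and Rpl39 carry it. Rps28 does not, and neither does Rpl22 at either of its 2 promoters. Rplp2, Rpl39 and Rps28 are shown as examples with and without these letters. Each stretch runs from 10 bases before the start to 15 after it, with the pyrimidine start in capitals where found; the positions are chr7:141447641-141447665 (plus strand), chrX:37085208-37085232 (minus) and chr17:33824548-33824572 (minus). A match is a description of letters only.
Rplp2: cagcgtcttcCTTTCgccgccggac
Rpl39: gctccgCCTCTagcgacttcttcta
Rps28: cgcgtgcggtctcgcgagagcgaaa

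Genes of the mitochondrial respiratory chain and of the mitochondrial ribosome rose more with sgMiat-96 than with sgMiat-6, and the medians of this excess were near 0 once length was considered. Of 75 nuclear oxidative phosphorylation genes (median 679 bp), 68 rose and 1 fell with sgMiat-96, with a median log2 change of 1.00, and 53 rose and 4 fell with sgMiat-6, with a median of 0.51. Between the guides 61 were higher and 0 lower, with a median of 0.49. With the trend removed 8 were higher and 5 lower, with a median of 0.03. Cox8a, a subunit of cytochrome c oxidase, had 232 and 207 CPM with sgGal4-4, 435 and 518 CPM with sgMiat-6 and 1054 and 790.5 CPM with sgMiat-96, with all 3 groups separate. Between sgMiat-96 and sgMiat-6 it differed by 0.95 ± 0.140 (edgeR adjusted p = 0.000814) and 0.39 after removal. The 77 mitochondrial ribosomal proteins gave 40 higher and 0 lower between the guides (median 0.37), and 12 higher and 7 lower (median 0.03) with length considered. The counts of 61 and 40 fell to 9 and 7 without sgMiat-96 replicate 1, to 23 and 17 without sgMiat-6 replicate 1, and to 39 and 25 with library totals.

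Glycolysis splits glucose to pyruvate, and lactate dehydrogenase turns pyruvate to lactate; in cerebellar progenitors and Hedgehog tumours this pathway runs high even in the presence of oxygen. With sgMiat-96 13 of 25 tested genes rose and 7 fell, with a median log2 change of 0.83. With sgMiat-6, 12 rose and 10 fell, with a median of 0.44. Between the guides 15 were higher and 3 lower beside 17.8% and 18.8% of all tested genes, with a median of 0.41. The list has a median transcript of 2481 bp, and with the trend removed 15 were still higher and 1 lower, with a median of 0.35. The count of 15 was 10 to 13 when any library was left out, and 13 to 15 when the length trend was removed as well.

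Promoters of these genes are shown because glycolysis genes and the hypoxia targets described next are classical targets of the hypoxia-inducible factors, which bind a short core, ACGTG or GCGTG. Both lists had positive medians between the guides, before and after length was considered. The core was searched on both strands of RefSeq promoters (GRCm38.p6, 300 bases). A gene counted if any of its promoters held the core. It was found for 22 of 24 glycolysis genes (91.67%) and 20 of 21 hypoxia target genes (95.24%). Members that rose and members that fell with sgMiat-96 were counted together. Since the lists hold classical targets, their shares say nothing about the guides. The share was 67.85% of the 9824 tested genes with a promoter and 68.97% of ribosomal protein genes. Counted per promoter and not per gene, it was 43.77% of all promoters of the table. Stretches of 61 bases upstream of the start are given for 5 genes, all chosen among those with the core there. They run 5′ to 3′ on the gene's strand, with the core or its reverse complement (CACGT or CACGC) in capitals. They lie at chr6:125165785-125165845 (minus strand, Gapdh), chr6:142508051-142508111 (minus, Ldhb), chr7:46845742-46845802 (plus, the upstream of 2 Ldha starts), chr4:119108681-119108741 (plus, Slc2a1) and chr7:138909509-138909569 (minus, Bnip3). Whether any factor was bound there was not measured.
Gapdh: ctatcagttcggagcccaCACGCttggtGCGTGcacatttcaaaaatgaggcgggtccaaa
Ldhb: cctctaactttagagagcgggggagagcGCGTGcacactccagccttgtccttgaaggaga
Ldha: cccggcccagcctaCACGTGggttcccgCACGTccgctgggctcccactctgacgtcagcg
Slc2a1: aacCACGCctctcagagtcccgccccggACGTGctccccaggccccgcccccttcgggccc
Bnip3: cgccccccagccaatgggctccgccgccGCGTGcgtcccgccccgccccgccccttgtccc

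Gpi1, which converts glucose 6-phosphate to fructose 6-phosphate, had 526 and 537 CPM with sgGal4-4, 755 and 853 CPM with sgMiat-6 and 1297 and 1281 CPM with sgMiat-96. The 3 groups did not overlap, with sgMiat-96 highest. The gap between the guides was 0.68 ± 0.102 on the log2 scale (edgeR adjusted p = 0.000874) and 0.69 with the trend removed. Ldhb, the lactate dehydrogenase subunit that prevails in oxidative tissue, had 133 and 130.3 CPM with sgGal4-4, 144 and 169.5 CPM with sgMiat-6 and 271 and 262 CPM with sgMiat-96. It was raised by sgMiat-96 (1.02) and not called with sgMiat-6 (0.25, edgeR adjusted p = 0.0669). Compared directly, the guides differed by 0.77 ± 0.108 (edgeR adjusted p = 0.000689), and 0.42 with length considered. Gapdh, which oxidises glyceraldehyde 3-phosphate, had 1424 and 1569 CPM with sgGal4-4, 2076 and 2281 CPM with sgMiat-6 and 3925 and 3419.9 CPM with sgMiat-96, in the same order of groups, with differences of 0.75 and 0.44 in the same pair of fits. Eno1, the enolase, differed by 0.77 and 0.56, although its counts cannot be told apart from those of its near-identical copy Eno1b.

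The glucose transporter Slc2a1 and the lactate dehydrogenase subunit Ldha, chosen for display after their values were seen, had 21.8 and 19.8 CPM with sgGal4-4, 71.8 and 63.5 CPM with sgMiat-6 and 109 and 97.9 CPM with sgMiat-96, and 722 and 709 CPM with sgGal4-4, 1598 and 1751 CPM with sgMiat-6 and 2586 and 2339 CPM with sgMiat-96, respectively. Both were raised by either guide and further by sgMiat-96, without overlap between groups. The 3 lower genes were Pfkfb2, Pfkfb3 and Slc16a1, with transcripts of 7308, 5181 and 4430 bp. Pfkfb2 and Pfkfb3 make the bisphosphate that activates phosphofructokinase, and Slc16a1 carries lactate across the membrane. Their differences between the guides were -1.15, -0.47 and -0.32, and with the trend removed the call remained only for Pfkfb2, at -0.69. That for Slc16a1 was also lost when any library but sgMiat-6 replicate 2 was left out, and that for Pfkfb3 without sgMiat-96 replicate 1.

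Hypoxia targets outside glycolysis were mixed in direction. Of 27 tested genes, 11 rose and 10 fell with sgMiat-96 (median -0.08), and 9 rose and 11 fell with sgMiat-6 (median -0.17). Between the guides 7 were higher and 4 lower (median 0.21), and 12 higher and 0 lower with the trend removed (median 0.28). The main-fit shares were 40.7% higher and 37.0% lower with sgMiat-96, and 25.9% and 14.8% between the guides. They lay near those of all tested genes, 34.0% and 34.2%, and 17.8% and 18.8%. Bnip3, a mitophagy receptor, had 22.3 and 26.1 CPM with sgGal4-4, 62.8 and 62.4 CPM with sgMiat-6 and 109 and 101 CPM with sgMiat-96, with the groups separate. Its difference between the guides was 0.75 ± 0.117 (edgeR adjusted p = 0.00104) and 0.53 after removal. Ddit4, an inhibitor of mTORC1 also driven by amino acid stress, had 243 and 207 CPM with sgGal4-4, 184 and 185 CPM with sgMiat-6 and 322 and 330.5 CPM with sgMiat-96. It was the highest with sgMiat-96 and the lowest with sgMiat-6 in every library. The difference was 0.82 ± 0.106 (edgeR adjusted p = 0.000507), 0.59 with length considered, while its rise over the control was then no longer called. Egln2, an oxygen-sensing prolyl hydroxylase, differed between the guides by 0.64 and 0.50. The 4 lower genes were Anln, Hif1a, Ero1l and Plod2, at -0.60, -0.47, -0.44 and -0.34, and none of the 4 was called with the trend removed. Hif1a, the oxygen-regulated factor subunit itself, had 422 and 423 CPM with sgGal4-4, 298 and 223 CPM with sgMiat-6 and 187 and 189 CPM with sgMiat-96, without overlap between groups. Vegfa, the angiogenic growth factor, fell with either guide (-1.37 on the log2 scale with sgMiat-96), and its difference between the guides was -0.02 (edgeR adjusted p = 0.873). These lower genes and Vegfa were named after their values were seen. The 12 called with length removed became 6 without sgMiat-96 replicate 1. The 4 lower genes of the main fit became 0 without it, 1 without sgMiat-96 replicate 2 and 2 without sgMiat-6 replicate 1.

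Cholesterol and its precursors are made through the mevalonate pathway, whose enzymes feed the sterols that Smoothened binds. Of 35 tested genes of sterol and fatty acid synthesis, 16 rose and 12 fell with sgMiat-96 (median 0.12), and 10 rose and 12 fell with sgMiat-6 (median -0.05). The falls with sgMiat-96 were 34.3% of the list, beside 34.2% of all tested genes. Between the guides 12 were higher and 4 lower (34.3% and 11.4%, beside 17.8% and 18.8% of all tested genes), with a median of 0.17. Removing the length trend raised the difference, to 19 higher and 2 lower with a median of 0.31. Without sgMiat-96 replicate 1 the 12 became 6, and the 19 became 13; over the other libraries left out they were 11 to 13, and 16 to 19. The 4 lower genes became 0 without sgMiat-96 replicate 1 or without sgMiat-6 replicate 1, and 7 without sgMiat-6 replicate 2. With library totals the list split into 10 higher and 7 lower between the guides, and into 13 higher and 16 lower against the control.

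Fdft1, squalene synthase, had 173 and 179 CPM with sgGal4-4, 159 and 169 CPM with sgMiat-6 and 256 and 242 CPM with sgMiat-96. Both sgMiat-96 values were above all others, and both sgMiat-6 values were below the controls. The guides differed by 0.60 ± 0.0995 on the log2 scale (edgeR adjusted p = 0.00133) and 0.60 with the trend removed. Mvd, which decarboxylates mevalonate diphosphate, and Dhcr7, the last step of cholesterol synthesis, were also highest with sgMiat-96 and were picked after their values were seen. Mvd had 34.7 and 33.4 CPM with sgGal4-4, 30.3 and 39.2 CPM with sgMiat-6 and 63.8 and 58.7 CPM with sgMiat-96, a difference of 0.82 ± 0.137 (edgeR adjusted p = 0.00138) and 0.62 after removal. Dhcr7 had 112 and 106 CPM with sgGal4-4, 109 and 105 CPM with sgMiat-6 and 154 and 144 CPM with sgMiat-96, a difference of 0.48 ± 0.103 (edgeR adjusted p = 0.00404) and 0.47 after removal, not called without sgMiat-96 replicate 1. For both genes the sgMiat-6 values overlapped the controls, and the sgMiat-96 values were above all others. Mvk, mevalonate kinase, Fdps, which makes farnesyl diphosphate, and Tm7sf2, a sterol reductase, rose with either guide and further with sgMiat-96, by 0.74, 0.76 and 0.84, or 0.50, 0.47 and 0.55 with length considered. Fdps and Tm7sf2 overlap other genes on the same strand, and their reads could not be assigned with certainty. Fdft1 overlaps Ctsb on the opposite strand, and as no strand setting was stated, the same holds for its reads.

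**Figure D3:**
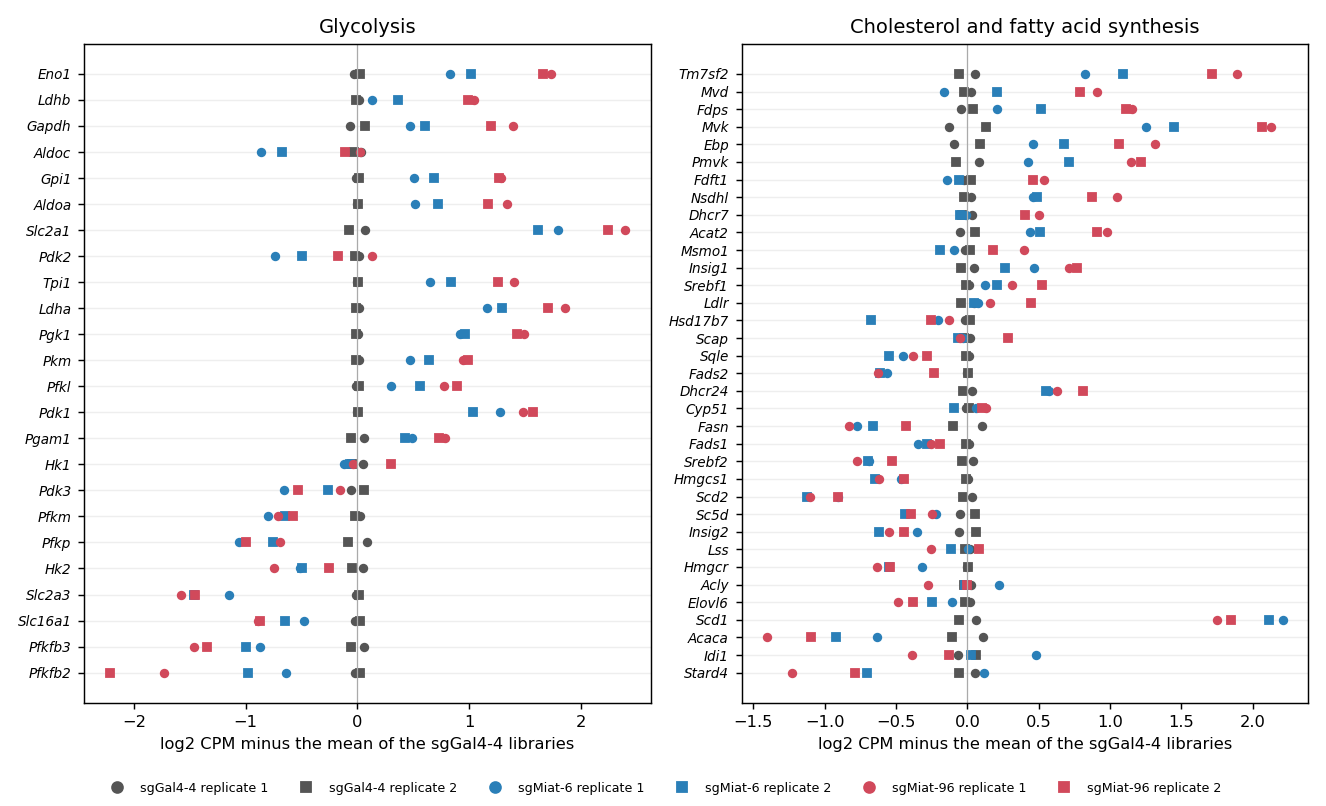
Level of every tested glycolysis gene (left) and sterol or fatty acid synthesis gene (right) averaging at least 5 CPM, in each library, as log2 CPM minus the mean of the sgGal4-4 libraries. Circles are replicate 1 and squares replicate 2, and genes are ordered by the difference between the guides. For the enzymes in the upper rows, from Eno1 and Ldhb to Tpi1 on the left and from Tm7sf2 to Fdft1 on the right, the red sgMiat-96 symbols lie to the right of the blue sgMiat-6 symbols.

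Lysosomal hydrolases and autophagy genes degrade macromolecules and cargo. Of 61 tested, 45 rose and 4 fell with sgMiat-96 (median 0.73), and 36 rose and 6 fell with sgMiat-6 (median 0.51). Between the guides 30 were higher and 1 lower (median 0.26), and 20 higher and 1 lower with the trend removed (median 0.17). Without sgMiat-96 replicate 1 the 30 became 9 and the 20 became 12, and without sgMiat-6 replicate 1 they became 17 and 12. With library totals 18 were higher and 4 lower. Gaa, the acid alpha-glucosidase, had 15.8 and 14.6 CPM with sgGal4-4, 30.4 and 35.5 CPM with sgMiat-6 and 64.1 and 77.9 CPM with sgMiat-96, in 3 separate groups. sgMiat-96 differed from sgMiat-6 by 1.11 ± 0.136 (edgeR adjusted p = 0.000434) and 1.24 with the trend removed. Neu1, a sialidase, had 21.0 and 20.2 CPM with sgGal4-4, 62.1 and 67.9 CPM with sgMiat-6 and 117 and 98.6 CPM with sgMiat-96, with a difference of 0.73 and 0.89 after removal. Gabarap, which marks autophagosome membranes, differed by 0.84 and 0.45. Ctsf, the lysosomal cathepsin F, is described below because the guides moved it in opposite directions.

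Interferon response and MHC class I genes, present peptides on the cell surface and answer viral RNA. Of 31 tested, 18 rose and 5 fell with sgMiat-96 (median 0.90), against 13 and 8 with sgMiat-6 (median 0.34). Between the guides 12 were higher and 2 lower (median 0.47), and 8 higher and 1 lower with the trend removed (median 0.18). The 12 became 5 without sgMiat-96 replicate 1 and 6 without sgMiat-6 replicate 1. The 8 became 1 without sgMiat-96 replicate 1, and 5 without sgMiat-6 replicate 1 or sgMiat-96 replicate 2. H2-D1, a class I heavy chain, had 7.32 and 5.93 CPM with sgGal4-4, 7.24 and 6.99 CPM with sgMiat-6 and 15.2 and 13.3 CPM with sgMiat-96. Both sgMiat-96 values were above the other 4, which overlapped. Between sgMiat-96 and sgMiat-6 it differed by 1.00 ± 0.181 (edgeR adjusted p = 0.00192) and 0.78 after removal. Usp18, which restrains interferon signalling, had 0.979 and 0.912 CPM in the control and 34.2 and 30.9 CPM with sgMiat-96, 0.94 above sgMiat-6 on the log2 scale and 0.73 with length considered. Ifitm3, a membrane protein that limits viral entry, was 1.81 above sgMiat-6, and 1.29 after removal. Psmb10, an immunoproteasome subunit, was 0.80 above it, and 0.45 after removal.

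Genes that were lower with sgMiat-96 than with sgMiat-6 were mostly long. Of 72 chromatin regulators (median 7273 bp), 56 fell and 3 rose with sgMiat-96 (median -0.76), and 33 fell and 6 rose with sgMiat-6 (median -0.34). Between the guides 45 were lower and 1 higher (median -0.53), and 10 lower and 5 higher with the trend removed (median -0.07). The 45 became 5 without sgMiat-96 replicate 1 and 23 without sgMiat-6 replicate 1. Ash1l, a histone methyltransferase with a transcript of 11270 bp, had 99.9 and 80.8 CPM with sgGal4-4, 80.5 and 59.8 CPM with sgMiat-6 and 32.3 and 40.0 CPM with sgMiat-96. Both sgMiat-96 values were below all others. Its difference between the guides, -0.96 ± 0.164 (edgeR adjusted p = 0.00153), was -0.37 with length considered. Smarca5, the ATPase of ISWI remodellers, differed by -0.64 and -0.39, and without sgMiat-96 replicate 1 was not called.

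Among 54 genes of double-strand break and crosslink repair, 27 fell and 6 rose with sgMiat-96, and 16 fell and 7 rose with sgMiat-6. Between the guides 21 were lower and 1 higher (median -0.28), and 6 lower and 1 higher with the trend removed (median -0.17). The 21 became 1 without sgMiat-96 replicate 1 and 10 without sgMiat-6 replicate 1, and the 6 ranged from 0 to 8 as each library was left out. Polq, the polymerase of microhomology-mediated end joining, had 14.7 and 14.1 CPM with sgGal4-4, 17.5 and 11.9 CPM with sgMiat-6 and 6.24 and 7.56 CPM with sgMiat-96. The sgMiat-96 values lay below the other 4, and sgMiat-6 did not differ from the control by the test (0.03, edgeR adjusted p = 0.899). The gap between the guides was -1.09 ± 0.205 (edgeR adjusted p = 0.0023), -0.58 after removal, and was not called without sgMiat-96 replicate 1. With the trend removed, its fall against the control was not called. Atm, the kinase that signals breaks, differed by -0.83, and with the trend removed, at -0.23, or without the same library it was not called.

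More mitosis genes fell than rose with either guide, and removing the length trend changed the median between the guides little. Of 66 tested, 34 fell and 14 rose with sgMiat-96 (median -0.27), and 22 fell and 9 rose with sgMiat-6 (median -0.17). Between the guides 23 were lower and 11 higher (median -0.12), and 15 lower and 2 higher with the trend removed (median -0.11). Without sgMiat-96 replicate 1 the 23 became 9, and without either sgMiat-96 library the 15 became 5. The median was -0.01, with 17 lower and 15 higher, when a GC content trend was removed instead, and 32 were lower and 4 higher with library totals. Casc5, now named Knl1, the kinetochore scaffold for Mis12 and the checkpoint proteins, had 58.0 and 52.7 CPM in the controls and 5.62 and 8.60 CPM with sgMiat-96, and both sgMiat-6 libraries lay between. The guides differed by -1.69 ± 0.264 (edgeR adjusted p = 0.00103) and -1.27 with length considered. Smc4, a condensin subunit, differed by -0.65 and -0.47.

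In the Hedgehog list, 18 of 28 tested genes fell and 6 rose with sgMiat-96, against 15 and 6 with sgMiat-6. Between the guides 6 were lower and 3 higher (median -0.17), and 4 lower and 3 higher with the trend removed (median 0.02). The 6 and 3 of the main fit were 21.4% and 10.7% of the list, beside 18.8% and 17.8% of all tested genes. Ptch1, the Hedgehog receptor and a Gli target, had 82.3 and 73.5 CPM with sgGal4-4, 37.1 and 18.8 CPM with sgMiat-6 and 6.46 and 9.64 CPM with sgMiat-96. Both sgMiat-96 values were below both sgMiat-6 values, which were below the controls. Compared directly, the guides differed by -1.80 ± 0.271 (edgeR adjusted p = 0.000882) and -1.58 with the trend removed. Gpr161, a ciliary receptor that restrains the pathway through protein kinase A, had 16.1 and 17.2 CPM with sgGal4-4, 14.3 and 7.55 CPM with sgMiat-6 and 1.97 and 3.35 CPM with sgMiat-96. It was not called with sgMiat-6 (-0.61, edgeR adjusted p = 0.0634), and the guides differed by -2.04 ± 0.310 (edgeR adjusted p = 0.000912), -2.23 after removal. Gli1, the usual measure of pathway output, had 16.8 and 15.3 CPM in the controls and 2.25 and 1.85 CPM with sgMiat-96. It fell with both guides, and its difference between them was -0.18 ± 0.277 (edgeR adjusted p = 0.646). Smo had 415 and 415 CPM in the controls and 362 and 452 CPM with sgMiat-96, a log2 difference of -0.03 ± 0.115 (edgeR adjusted p = 0.83); with the length trend removed it was called higher, by 0.22.

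At the level of single genes, 111 (0.84%) rose at least 2-fold with sgMiat-96, exceeded sgMiat-6 by the test, and were neither called nor moved past 1.5-fold by sgMiat-6. The falling counterpart held 195 genes (1.48%). These shares are those of the rule itself over all 13220 tested genes. The rising genes had a median transcript of 1110 bp and the falling genes 3946 bp, beside 2843.5 bp over all tested genes. Their median GC contents were 56.0% and 46.0%, beside 50.6%. In the fit with the trend removed the same rule took 37 (0.28%) and 130 genes (0.983%), of which 12 and 87 were among the original ones. The falling set thus overlapped its length-adjusted version by 87 of 195 and 87 of 130, and the rising set by 12 of 111 and 12 of 37. The difference between the guides itself was still called in the same direction for 57 of the 111 and 165 of the 195. With a GC trend removed instead, the rule took 84 and 148 genes, of which 47 and 99 were among the original ones. Among the falling genes, 189 of 195 were lower in sgMiat-6 replicate 2 than in replicate 1, against 6538 of all 13220. In sgMiat-96, 171 of them were lower in replicate 1 than in replicate 2, against 6612. Among the rising genes, 95 of 111 were higher in sgMiat-6 replicate 2 than in replicate 1, against 6609 of all 13220. In sgMiat-96, 88 of them were higher in replicate 1 than in replicate 2, against 6545. Without sgMiat-6 replicate 1 the counts were 36 and 62, without sgMiat-6 replicate 2 they were 225 and 418, and without sgMiat-96 replicate 1 they were 32 and 56.

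Agt, which encodes angiotensinogen, the precursor of the angiotensin peptides, had the largest rise of the first set among genes averaging at least 5 CPM. It had 5.56 and 4.00 CPM with sgGal4-4, 5.85 and 6.79 CPM with sgMiat-6 and 17.4 and 15.9 CPM with sgMiat-96. Both sgMiat-96 values were above the other 4, which lay close together. Its change from the control was 1.80 ± 0.200 (edgeR adjusted p = 4.74e-06), and its difference from sgMiat-6 was 1.39 ± 0.194 (edgeR adjusted p = 0.000659) and 1.20 with length considered. Mif, a cytokine and tautomerase listed among hypoxia targets, had 225 and 225 CPM with sgGal4-4, 227 and 283 CPM with sgMiat-6 and 677 and 528 CPM with sgMiat-96, a difference of 1.24 ± 0.136 (edgeR adjusted p = 0.000262), and 0.69 after removal, for a transcript of 554 bp. Trappc6a, of a complex that tethers vesicles at the Golgi, had 27.1 and 24.7 CPM with sgGal4-4, 29.1 and 34.9 CPM with sgMiat-6 and 76.1 and 65.1 CPM with sgMiat-96, a difference of 1.14 and 0.67 after removal. In both genes the sgMiat-96 libraries were apart from the rest.

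The other named genes of this set kept their call between the guides with length considered in 5 cases: Grcc10 (0.73), Rps28 (0.69), Rab4b (0.71), a regulator of endosome recycling, Snrpg (0.43), a core protein of spliceosomal particles, and Ccdc84 (0.63). For 4 the call was lost: Fam229b, Pex10, an enzyme of peroxisome import, Mgst3, a microsomal glutathione transferase, and Ifi35, an interferon-induced protein. These 4 also lost the call without sgMiat-6 replicate 1 or without sgMiat-96 replicate 1. Grcc10 and Rab4b overlap other genes on the same strand, and Ccdc84 overlaps the ribosomal protein gene Rps25 on the opposite strand.

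The 12 falling genes named by rule had log2 changes from -3.00 (Aff2) to -1.98 (Klhl11) against the control, and all kept their call between the guides with the trend removed. Ulbp1, a stress ligand for the NKG2D receptor of natural killer cells, had 74.0 and 76.8 CPM with sgGal4-4, 84.4 and 35.9 CPM with sgMiat-6 and 7.53 and 12.8 CPM with sgMiat-96. The difference between the guides was -2.57 ± 0.328 (edgeR adjusted p = 0.000499) and -2.79 with length considered. The sgMiat-6 libraries stood apart from each other here, replicate 1 above and replicate 2 below the controls. Kif13b, a kinesin that carries cargo along microtubules, had 13.3 and 12.3 CPM with sgGal4-4, 12.1 and 9.75 CPM with sgMiat-6 and 2.02 and 2.89 CPM with sgMiat-96, a difference of -2.15 ± 0.226 (edgeR adjusted p = 0.000198) and -1.83 after removal. Its sgMiat-6 values lay below the controls, and its sgMiat-96 values below those. Glg1, a Golgi glycoprotein that binds fibroblast growth factors, had 207 and 176 CPM with sgGal4-4, 169 and 100.1 CPM with sgMiat-6 and 22.8 and 43.2 CPM with sgMiat-96, a difference of -2.03 and -1.87.

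Pds5a, a regulator of cohesin, had 108 and 104 CPM with sgGal4-4, 101 and 68.4 CPM with sgMiat-6 and 16.3 and 33.2 CPM with sgMiat-96, with the guides differing by -1.78 ± 0.253 (edgeR adjusted p = 0.000719) and -1.59 with length considered. Tbl1x, a subunit of the NCoR corepressor complex, had 74.2 and 71.8 CPM with sgGal4-4, 71.8 and 42.0 CPM with sgMiat-6 and 13.9 and 19.9 CPM with sgMiat-96, with differences of -1.75 and -1.85. In both genes sgMiat-6 replicate 1 was within or near the controls and replicate 2 below them. Lyst, which controls lysosome size and has a 11806 bp transcript, differed by -1.88 and -1.28. Abhd2, a lipid hydrolase, differed by -1.89 and -1.88. Without sgMiat-96 replicate 1 the call between the guides was lost for Aff2, Wdfy2, Lrrc8b, Rassf8 and Klhl11, and without sgMiat-6 replicate 1 also for Wdfy2 and Lrrc8b.

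**Figure D4:**
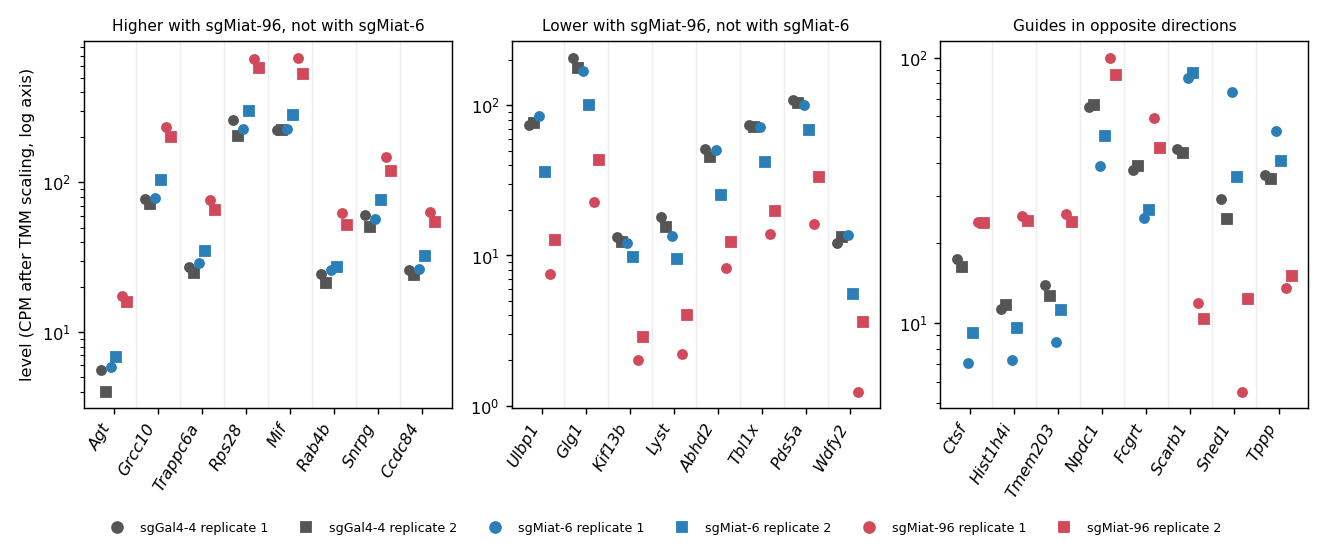
Level in each library (CPM after TMM scaling, log axis) of 8 genes higher with sgMiat-96 and not with sgMiat-6, 8 genes lower with sgMiat-96 and not with sgMiat-6, and 8 genes that the guides moved in opposite directions. Circles are replicate 1 and squares replicate 2. In the first and second panels the red sgMiat-96 symbols lie beyond all others, and the blue sgMiat-6 square often lies between them and the controls.

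A larger number of genes moved with sgMiat-96 in the same sense as with sgMiat-6, or regardless of it, but further. By the test 1852 genes (14.0%) were risen against the control and higher than with sgMiat-6, and 1959 (14.8%) were fallen and lower. With the trend removed there were 1148 (8.68%) and 1042 (7.88%), of which 788 and 805 were the same genes. Of the 1852, 1660 were higher in sgMiat-6 replicate 2 than in replicate 1, and 1542 were higher in sgMiat-96 replicate 1 than in replicate 2. Of all 13220 genes, 6609 and 6545 ran this way. Of the 1959, 1809 and 1579 ran the other way, against 6538 and 6612 of all genes. Without sgMiat-96 replicate 1 the counts of 1852 and 1959 became 499 and 389, and without sgMiat-6 replicate 1 they became 936 and 937. Of the rising genes sgMiat-6 had raised 1041, lowered 23 and not changed 788 by its own test; of the falling genes it had lowered 972, raised 21 and not changed 966. Among the largest differences, Peg3, an imprinted zinc finger gene, had 97.2 and 77.5 CPM with sgGal4-4, 11.9 and 5.36 CPM with sgMiat-6 and 0.787 and 1.15 CPM with sgMiat-96, each group separate from the next. The guides differed by -3.15 ± 0.395 (edgeR adjusted p = 0.000463) and -2.72 with length considered.

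Zbed6, a transposon-derived repressor that lies within Zc3h11a on the same strand, had 79.3 and 65.2 CPM with sgGal4-4, 29.5 and 6.84 CPM with sgMiat-6 and 0.169 and 0.693 CPM with sgMiat-96. Its reads may in part belong to its host, and its difference was -5.39 ± 0.731 (edgeR adjusted p = 0.000617) and -5.09 after removal. Ppp1r12b, a myosin phosphatase subunit, Shroom4, which organises the actin cytoskeleton, Uhmk1, a kinase with an RNA-binding motif, and Zfp369 differed by -3.07, -3.12, -3.05 and -3.33, or -3.01, -2.89, -3.23 and -3.33 with length considered. The call for Zfp369 was lost without sgMiat-96 replicate 1. In the rising direction Dcxr, a carbonyl reductase, was listed at 0 in both controls and had 7.04 and 7.35 CPM with sgMiat-6 and 21.5 and 18.4 CPM with sgMiat-96. It was at least 261-fold higher with sgMiat-96 than in the control, taking 3 counts over the control group as its limit, and 1.47 ± 0.181 above sgMiat-6 on the log2 scale (edgeR adjusted p = 0.000507), or 1.03 after removal.

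Members of other lists that differed between the guides included metal-binding, lineage and matrix genes. The metallothioneins Mt1 and Mt2, which bind zinc and copper, had 177 and 185 CPM with sgGal4-4, 459.9 and 553 CPM with sgMiat-6 and 1282 and 1008 CPM with sgMiat-96, and 66.7 and 73.2 CPM with sgGal4-4, 165 and 195 CPM with sgMiat-6 and 474 and 366 CPM with sgMiat-96, respectively. They differed between the guides by 1.18 and 1.22, and by 0.62 and 0.67 with length considered. Olig1, a transcription factor of the oligodendrocyte lineage, had 969.6 and 963 CPM with sgGal4-4, 1909 and 2015 CPM with sgMiat-6 and 3251 and 3304 CPM with sgMiat-96, a difference of 0.74 ± 0.0987 (edgeR adjusted p = 0.000548) and 0.61. In all 3 genes the groups were separate and sgMiat-96 was highest. Itgb8, the integrin subunit that activates latent TGF-beta, had 56.7 and 52.7 CPM with sgGal4-4, 48.5 and 14.9 CPM with sgMiat-6 and 2.92 and 6.35 CPM with sgMiat-96, a difference of -2.78 (-2.72 after removal) that was not called without sgMiat-96 replicate 1. Ncan, the proteoglycan neurocan, had 0.258 and 0.152 CPM with sgGal4-4, 0.397 and 0.102 CPM with sgMiat-6 and 3.88 and 6.18 CPM with sgMiat-96. It was near the limit of detection in the other 4 libraries, and in both sgMiat-96 libraries it rose by 4.58 ± 0.513 against the control (edgeR adjusted p = 5.03e-06), with sgMiat-6 not called (0.29, edgeR adjusted p = 0.779). sgMiat-96 differed from sgMiat-6 by 4.29 ± 0.494 (edgeR adjusted p = 0.000293) and 4.73 after removal, for a transcript of 7166 bp.

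The guides moved 44 of the 13220 tested genes in opposite directions, each called against the control for both and between the guides: 23 were higher with sgMiat-96 and 21 lower. Scarb1, the receptor for high-density lipoprotein, had 45.1 and 43.8 CPM with sgGal4-4, 83.8 and 87.3 CPM with sgMiat-6 and 11.9 and 10.3 CPM with sgMiat-96. All 3 groups were separate, with sgMiat-6 above and sgMiat-96 below the control. Between sgMiat-96 and sgMiat-6 it differed by -2.95 ± 0.130 (edgeR adjusted p = 1.22e-07), or -3.00 with length considered. Tppp, which promotes tubulin polymerisation, had 36.2 and 34.8 CPM with sgGal4-4, 53.0 and 40.9 CPM with sgMiat-6 and 13.5 and 15.0 CPM with sgMiat-96, in the same order, with a difference of -1.72 and -1.44. Sned1, a matrix protein, had 29.3 and 24.7 CPM with sgGal4-4, 74.2 and 35.5 CPM with sgMiat-6 and 5.51 and 12.3 CPM with sgMiat-96, with a difference of -2.63, or -2.39 after removal, and the sgMiat-6 replicates far apart.

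Ctsf had 17.4 and 16.3 CPM with sgGal4-4, 7.09 and 9.14 CPM with sgMiat-6 and 24.1 and 23.8 CPM with sgMiat-96. It was highest with sgMiat-96 and lowest with sgMiat-6, with a difference of 1.56 ± 0.164 (edgeR adjusted p = 0.000198) and 1.39 after removal. Its rise over the control was not called without sgGal4-4 replicate 2, with the length or GC trend removed, or with library totals. The histone gene Hist1h4i had 11.3 and 11.7 CPM with sgGal4-4, 7.24 and 9.60 CPM with sgMiat-6 and 25.4 and 24.2 CPM with sgMiat-96, and Tmem203, of the endoplasmic reticulum membrane, had 13.9 and 12.7 CPM with sgGal4-4, 8.48 and 11.2 CPM with sgMiat-6 and 25.8 and 24.1 CPM with sgMiat-96. They differed between the guides by 1.56 and 1.34, and by 0.99 and 0.91 with length considered, while neither rise over the control was then called.

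The genes named as moved furthest by sgMiat-96 from the control were moved by sgMiat-6 as well, each at an edgeR adjusted p under 0.05. Map1lc3a, an autophagosome protein, was listed at 0 in both controls and had 77.4 and 69.7 CPM with sgMiat-96 and 39.2 and 50.1 CPM with sgMiat-6. It was at least 960-fold higher with sgMiat-96 than in the control. Ddt, Dtd1 and the adaptor gene She, also at 0 in the controls, were at least 754-fold, 303-fold and 286-fold higher. Wisp1, a matricellular Wnt target, and Xlr3b were at 0 with sgMiat-96 and at least 381-fold and 308-fold lower. Their 0 in sgMiat-96 replicate 2 was set from an FPKM of 0. Both were at 0 with sgMiat-6 too. Vcan, the proteoglycan versican, had 353 and 319 CPM with sgGal4-4, 1.09 and 0.868 CPM with sgMiat-6 and 0.675 and 0.519 CPM with sgMiat-96. It fell by 9.12 on the log2 scale with sgMiat-96, and its difference between the guides was -0.71 ± 0.337 (edgeR adjusted p = 0.126), or -0.10 after removal.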

How the data were processed

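RNA-seq was made from 1 µg of total RNA with an mRNA library kit, per the labels' protocols, in 6 libraries of 3 guides. The submitters' processing notes name STAR and the mouse build GRCm38/mm10; no counter, version or strand setting was stated in the sources used here. Reads of named genes that overlap others on the opposite strand, such as Gapdh, Bnip3, Rps28 and Tmem203, could therefore not be assigned with certainty. The authors deposited per library a count, an FPKM and a TPM value for each of 33984 RefSeq rows, per the file headers. The deposited count is the value tested, the FPKM was used only to set a count to 0 where it was 0, and the TPM was not used. The sgMiat-96 replicate 2 file lists 11223 such rows with a count above 0, and no row at a count of 0. Every 0 given for that library was therefore set in this way. Each of 24063 symbols was represented by its most counted row, summed over all 6 libraries, and 23802 symbols matched GENCODE M21, 23144 by accession and 658 by symbol, for position and gene type. Deposited counts summed to between 27324587 and 29671461 per library before this step.

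Genes passing filterByExpr were fitted with edgeR 4.0.16 (R 4.3.3) quasi-likelihood tests in 1 model of the 3 guides, with TMM scaling, a prior count of 0.125 and Benjamini-Hochberg adjustment over all 13220 genes, and called at 0.05. Levels are CPM after TMM scaling, and errors of log2 values are standard errors. "Length considered" or "trend removed" means a fit with a loess offset (span 0.3) of each library on transcript length. Genes moved by sgMiat-96 and not by sgMiat-6 were called against the control with at least 2-fold change, called between the guides in the same direction, and neither called nor changed by 1.5-fold with sgMiat-6. Lower bounds take 3 counts over the group at 0, and cover counting error only. Alternatives were DESeq2 1.42.0, other scalings, filters and rows, counts as listed, a GC offset, the replicate number as a block, and each library left out, the last also with the length offset, which was chosen after seeing the data. On data simulated from these libraries (12782 genes), the fit of sgMiat-96 against the control recovered 55.2% of 1.5-fold and 100% of 2-fold changes, with 12 of 182 calls false, and that between the guides 49.3% and 97%, with 12 of 176 false. The simulated libraries had the same spread in every group and no length or GC trend. These rates therefore do not cover calls that follow such trends or the larger spread of the Miat guide libraries. Genes were named by a rule: the largest changes in each class among genes averaging at least 5 CPM, and the list members that moved further with the smallest adjusted p between the guides; members of lists described in full were also named. A gene that this rule takes is not reported here. The members, gene lists and rules were chosen with earlier results of these data known. Promoter sequences are RefSeq's. Guide sequences were not analysed here.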

Additional observations from a re-analysis of the deposited data

Results flagged for a closer look

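The following 9 genes are listed here because the guides moved them in opposite directions against the same controls and the direct test between the guides called the difference; they are among the largest such differences in each direction. Higher with sgMiat-96 on the log2 scale were Ctsf (1.56), Hist1h4i (1.56), Tmem203 (1.34), Npdc1 (1.05), a neural differentiation gene that overlaps Entpd2 on the same strand, and Fcgrt (1.03), the neonatal Fc receptor. Lower were Scarb1 (-2.95), Sned1 (-2.63), Zfhx2 (-1.75), a homeobox gene, and Tppp (-1.72). With the length trend removed the difference between the guides was still called for each of the 9, while the change of sgMiat-96 against the control was called only for Scarb1, Sned1 and Tppp. The rise of Fcgrt over the control was not called without sgGal4-4 replicate 1 or without sgMiat-96 replicate 1, that of Npdc1 without sgMiat-96 replicate 1, and that of Ctsf without sgGal4-4 replicate 2. All 3 rises were also not called with library totals or with a GC trend removed. Which guide's sites or which step produced these differences was not tested.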

How the results depend on the processing

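The counts of called genes in the 3 comparisons and in the 4 classes stayed within 1.5 times of the reported ones with DESeq2, RLE factors, no filter or 5 CPM in 2 libraries, the counts as listed, only the libraries compared, the row of the longest transcript and the GC offset. With the GC offset many genes changed all the same. Its 4 classes held 84, 148, 1601 and 1503 genes, of which 47, 99, 1115 and 1171 were the original ones. With library totals, 51 genes rose and 333 fell with sgMiat-96 and not with sgMiat-6, and 1043 rose and 2982 fell further. With the length trend removed, 3182 genes differed between the guides, 37 rose with sgMiat-96 and not with sgMiat-6, and 1148 rose and 1042 fell further. Leaving out each library in turn gave 1124 to 5740 genes differing between the guides. It gave 32 to 225 genes risen and 56 to 418 fallen with sgMiat-96 and not with sgMiat-6, and 499 to 2054 risen and 389 to 2468 fallen further. With the length trend removed as well, these ranges were 1154 to 4077, 10 to 78, 28 to 234, 452 to 1476 and 383 to 1407. The lowest values were without sgMiat-96 replicate 1, except the 28, which was without sgMiat-6 replicate 1. Against the control the changes of Npdc1 and Rpl36a turned to -0.0036 and -0.0546 with the length trend removed. The libraries shared replicate numbers, but deviations of same-numbered libraries correlated at 0.04985, -0.1495 and -0.3065, so the numbers did not pair them. With the replicate number as a block, 8562 genes were called against the control, 6444 for sgMiat-6 and 4043 between the guides; 115 rose and 208 fell with sgMiat-96 and not with sgMiat-6, and 1514 rose and 1689 fell further. With the sgMiat-96 numbers crossed, chosen after seeing the data, these 4 classes held 96, 138, 2176 and 2335. With 2 libraries per guide and 1 left out, the remaining library was assumed to vary like the others. The 2 libraries of each Miat guide differed more than the controls did, with 19.15 (sgMiat-6) and 14.05 (sgMiat-96) chi-square units per gene against 4.126, which limits how finely the guides can be told apart. Simulated 1.5-fold differences were called in about 1 of 2 cases, in data with equal spread in all groups and no length or GC trend.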

Other observations

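The median change over the genes of a chromosome averaging at least 5 CPM was not the same for all chromosomes. Between the guides the medians ran from -0.157 on chromosome X to 0.165 on chromosome 7, or -0.133 and 0.117 with the length trend removed. On chromosome 1 the median log2 change was -0.50 with sgMiat-96 and -0.45 with sgMiat-6 against the same controls, and -0.08 between the guides. On chromosome 15 the values were -0.38, -0.42 and 0.07, and on chromosome 5, which carries Miat, they were 0.10, 0.22 and -0.12. With the length trend removed, those of chromosome 1 were -0.39, -0.42 and 0.0009.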
